A study of Homo sapiens with 36 samples.

Results

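Vehicle-treated UPN-1 and MINO, 2 established mantle cell lymphoma lines, were compared with each other 24 h after DMSO, the solvent control of the study. The members were chosen by label alone, as the 3 UPN-1 and the 3 MINO libraries titled DMSO at 24 h, which are 6 of the 36 RNA sequencing libraries of the series. The whole series treated JEKO, MINO and UPN-1 cells with DMSO or GS716054 for 24 or 72 h, with 3 biological replicates in each of 12 groups. The 6 libraries compared here carry no inhibitor, and both lines were grown in the same medium. Each group is 1 line, so the replicates measure the spread within a line, and any feature of the 2 lines that differs with their name cannot be told apart from the others. Genes on chromosomes X and Y were left out of every test, list and named gene. Their reads still count in the library sizes and in the totals of gene reads and detected genes.

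Mantle cell lymphoma is a mature B-cell malignancy in which a translocation places CCND1, the gene of cyclin D1, under immunoglobulin heavy chain control. Most cases also express SOX11, a transcription factor that normal B cells lack, and the T-cell-associated surface protein CD5. Survival of these cells is known to draw on B-cell receptor signalling and on NF-kappaB, a family of transcription factors held in the cytoplasm by inhibitor proteins, while cyclin D1 acts with CDK4 and CDK6 on the retinoblastoma protein at the entry into S phase.

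Gene reads numbered 9269078 to 12481534 per library in MINO and 9720919 to 14125495 in UPN-1, and 18615 to 20199 genes had a read. The lines separated along the first principal component, which carried 90.4% of the variance of log2 CPM. On the second component MINO replicate 2 (-33.0) lay apart from MINO replicates 1 and 3 (15.6 and 18.3). Spearman correlations of log2 CPM were 0.987 to 0.994 within a line and 0.881 to 0.898 between the lines. Levels are CPM, read counts divided by library size and expressed at 1 common depth, with library sizes scaled by the trimmed mean of M values, and every log2 fold change is UPN-1 minus MINO. A gene was called where the p of edgeR's quasi-likelihood test, adjusted by Benjamini-Hochberg across the 13775 genes tested, was under 0.05. By that rule 8550 genes were called, 62.1% of those tested, with 4343 higher in UPN-1 (31.5%) and 4207 lower (30.5%). A difference of at least 2-fold was called for 3476 genes (25.2%), of which 1387 were higher (10.1%) and 2089 lower (15.2%). The 2 sets of libraries did not overlap for 9259 genes (67.2%), so a separation of the 3 values from the other 3 is the usual case here. The median log2 fold change of all genes tested was 0.02, and gene lists are read against these shares. For the same contrast, a fit of all 36 libraries called 4009 of 17256 genes higher and 3617 lower. A fit of the 12 vehicle libraries of both lines called 3529 of 14978 higher and 3574 lower. List counts from those 2 fits are to be read against these lower numbers.

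**Figure D1:**
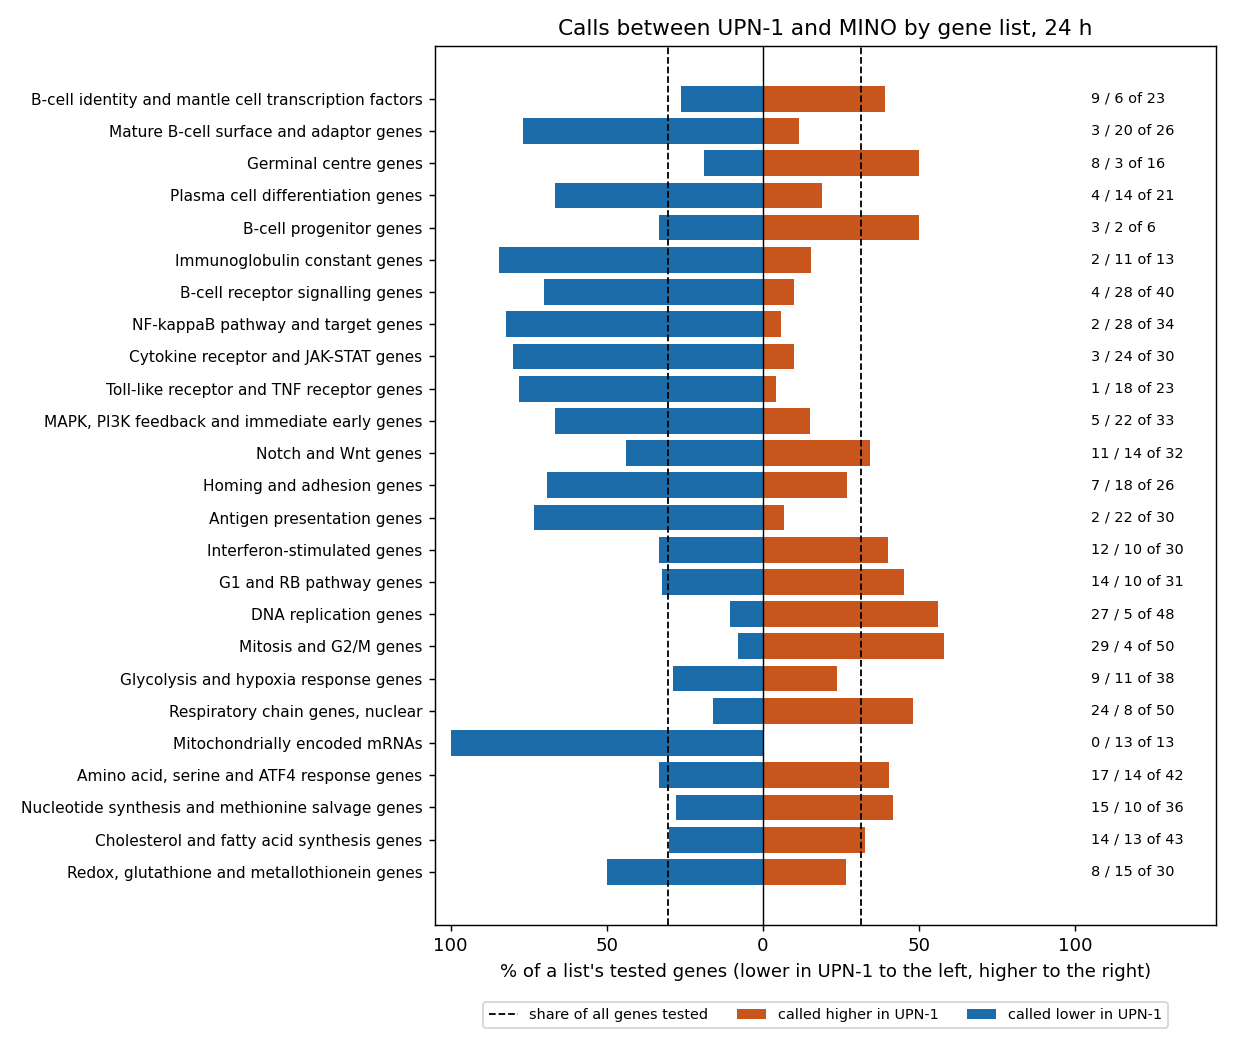
Share of the tested genes of 25 lists called higher in UPN-1 (orange, to the right) or lower (blue, to the left) at 24 h, in percent; the numbers at the right give genes called higher and lower of those tested, and the dashed lines mark the same shares over all genes tested (31.5% and 30.5%). Lists of B-cell surface, receptor signalling, NF-kappaB, cytokine receptor and antigen presentation genes lie mostly to the left, DNA replication and mitosis genes mostly to the right.

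Both lines had CCND1 and SOX11 transcripts, and CD5 was near 0 in UPN-1. CCND1 (ENSG00000110092, chromosome 11, 69641156 to 69654474) was high in both lines, at 1953, 1694 and 1952 CPM in MINO and 2251, 2307 and 2307 CPM in UPN-1. The difference was small (log2 fold change 0.29, SE 0.0887, adjusted p = 0.0113), and the call was lost without UPN-1 replicate 2 (adjusted p = 0.0509). The call was also lost in the fits of 12 vehicle and of all 36 libraries (adjusted p = 0.202 and 0.127). At 72 h CCND1 did not differ (log2 fold change -0.00668, adjusted p = 0.988). SOX11 (chromosome 2, 5692384 to 5701385) was lower in UPN-1, with 160.2, 149.8 and 163 CPM in MINO and 58.6, 74.1 and 83.5 CPM in UPN-1 (log2 fold change -1.13, SE 0.113, adjusted p = 2.0e-06). The 2 sets of SOX11 values did not overlap, and both lines lay well above the limit of detection. CD5 (chromosome 11, 61102489 to 61127852), the antigen shared with T cells, stood at 68.9, 62.1 and 62.3 CPM in MINO and 2.60, 1.68 and 1.82 CPM in UPN-1. That was the second largest difference among the mature B-cell surface genes (log2 fold change -4.98, SE 0.156), and CD5 was called lower at 72 h too (-3.72, adjusted p = 9.3e-06).

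Genes of mature B-cell identity on the surface were mostly lower in UPN-1. Of 26 tested surface and adaptor genes, 20 were lower, 3 were higher and 3 were not called, and 16 of the lower genes passed 2-fold. Their median log2 fold change was -1.29. MS4A1, which encodes CD20, measured 1123, 855 and 1036 CPM in MINO and 472, 454 and 479 CPM in UPN-1 (log2 fold change -1.10, SE 0.101, adjusted p = 9.1e-07). The highest UPN-1 library lay below the lowest MINO library. CD79A and CD79B encode the 2 signalling chains of the B-cell receptor and went in opposite directions: CD79A was at 1097, 886 and 1188 CPM in MINO and 399, 468 and 465 CPM in UPN-1 (log2 fold change -1.25), and CD79B was at 487, 519.6 and 535 CPM in MINO and 806, 737 and 678 CPM in UPN-1 (log2 fold change 0.53). FCMR, the Fc receptor for IgM, differed most among the genes of this list, with 533, 472 and 572 CPM in MINO and 12.7, 17.2 and 6.87 CPM in UPN-1 (log2 fold change -5.46, SE 0.225, adjusted p = 6.7e-10). CD24 was higher in UPN-1 (log2 fold change 0.58). At 72 h CD79A was again called lower (-1.19, adjusted p = 0.00482). CD79B (0.41, adjusted p = 0.174) and CD24 (0.56, adjusted p = 0.113) were not called at that time. CD52, CD37 and CD83, chosen after their values were seen, were lower (log2 fold changes -3.59, -1.91 and -2.50).

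The list of B-cell identity and mantle cell transcription factors, which also holds the cyclin gene CCND1 and SOX11, was divided. Of 23 tested, 9 were higher in UPN-1, CCND1 among them, and 6 lower, with a median log2 fold change of 0.03, close to the median of all genes. In the fit of all 36 libraries 3 were lower, and at 72 h 6 were higher and 3 lower. PAX5, the factor that commits cells to the B lineage, was higher in UPN-1, with 173, 146 and 160.3 CPM in MINO and 263, 261 and 329 CPM in UPN-1 (log2 fold change 0.84, SE 0.104, adjusted p = 1.4e-05). At 72 h PAX5 was not called (0.495, adjusted p = 0.0837). BACH2, a repressor of plasma cell differentiation, was at 34.3, 20.0 and 33.8 CPM in MINO and 197, 238 and 233 CPM in UPN-1 (log2 fold change 2.93, SE 0.164, adjusted p = 1.1e-08). IRF8, a factor of germinal centre and myeloid programmes, was at 23.6, 31.4 and 17.8 CPM in MINO and 187, 174 and 158 CPM in UPN-1 (log2 fold change 2.83, SE 0.157, adjusted p = 9.7e-09). In BACH2 and IRF8 the lowest UPN-1 library was more than 5 times the highest MINO library. FOXO1 and EBF1, chosen after their values were seen, were higher too (log2 fold changes 2.41 and 1.11). KLF2, a factor of quiescence and homing, and TBX21, the factor T-bet, were lower in UPN-1 (log2 fold changes -1.75 and -2.56).

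Germinal centre genes were split. Of 16 tested, 8 were higher in UPN-1 and 3 lower, and 4 of the higher genes passed 2-fold. Without MINO replicate 1, and in the fits of 12 and of 36 libraries, 5, 4 and 4 were called higher. MME (chromosome 3, 155024124 to 155183704), which encodes CD10, a surface peptidase of progenitor and germinal centre B cells, had 0 counts in all 3 MINO libraries and 35.2, 25.7 and 13.6 CPM in UPN-1, at least 278-fold higher against a floor of 3 counts over the MINO group. GCSAM, a germinal centre signalling adaptor, was at 5.33, 4.46 and 4.77 CPM in MINO and 102, 110.1 and 109.9 CPM in UPN-1 (log2 fold change 4.47, SE 0.111, adjusted p = 8.6e-12). BCL6, the repressor that defines the germinal centre stage, was low in both lines, at 2.27, 2.52 and 3.27 CPM in MINO and 4.67, 3.57 and 4.58 CPM in UPN-1. Its adjusted p was 0.0432 at 24 h, the call was lost in 4 of the 6 fits without 1 library (adjusted p 0.0913 to 0.132), and at 72 h the log2 fold change was -0.67 (adjusted p = 0.428). MEF2C and STAP1 were lower in UPN-1 (log2 fold changes -2.03 and -1.81).

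Plasma cell genes were mostly lower in UPN-1, with 14 of 21 tested lower, 4 higher and a median log2 fold change of -1.08. IRF4, which drives both activation and plasma cell differentiation, was at 351, 506 and 408 CPM in MINO and 222, 223 and 222 CPM in UPN-1 (log2 fold change -0.92, SE 0.113, adjusted p = 1.2e-05). SDC1, the plasma cell surface proteoglycan CD138, was at 9.52, 15.6 and 9.88 CPM in MINO and 5.38, 4.26 and 3.70 CPM in UPN-1 (log2 fold change -1.41, SE 0.238, adjusted p = 2.0e-04). CD38 measured 152, 123 and 156 CPM in MINO and 60.8, 62.0 and 42.5 CPM in UPN-1 (log2 fold change -1.38), but it was not called at 72 h (-0.27, adjusted p = 0.361). CD27, a memory B-cell receptor, had a log2 fold change of -1.35. The libraries of the 2 lines did not overlap for IRF4, SDC1 or CD38. TNFRSF17, the receptor BCMA, and CAV1 were lower as well (log2 fold changes -2.01 and -3.02). XBP1, the secretory programme factor, differed by -0.27 and lost its call without UPN-1 replicate 3 (adjusted p = 0.0614). PRDM1, which encodes BLIMP1, the factor that ends the B-cell programme, went the other way at low levels, with 4.76, 4.46 and 6.70 CPM in MINO and 9.87, 7.24 and 11.7 CPM in UPN-1 (log2 fold change 0.86, SE 0.231, adjusted p = 0.00577), and at 72 h it was not called (-0.63, adjusted p = 0.143). DNAJC3, a chaperone of the endoplasmic reticulum, was higher in UPN-1 (log2 fold change 1.81).

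Among progenitor genes, 6 of 13 listed passed the count filter, of which 3 were higher in UPN-1, 2 lower and 1 not called. At a minimum count of 50, 1 was called lower. IL7R (chromosome 5, 35852695 to 35879603), the interleukin 7 receptor of early B-cell and T-cell development, had 2 counts over the MINO group against 39.6, 40.1 and 49.7 CPM in UPN-1, a ratio of 774, with a 95% exact interval of 214 to 6398. IGLL1 (lambda-5, a surrogate light chain gene) had 1 count over the MINO group and 91.9, 60.4 and 51.6 CPM in UPN-1, a ratio of 2345, with a 95% exact interval of 420.4 to 92644. RAG2 had 37 counts over the UPN-1 group, and RAG1 and DNTT had 8 and 1, against 0 each in MINO, all below the filter. LEF1, a Wnt pathway factor of early B cells that mature B-cell lymphomas can express, was lower in UPN-1, with 84.0, 83.4 and 101 CPM in MINO and 12.7, 9.91 and 9.83 CPM in UPN-1 (log2 fold change -3.05, SE 0.127, adjusted p = 7.4e-10). IGLL1 and IGLL5 share sequence with the lambda constant genes, so their counts are uncertain.

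**Figure D2:**
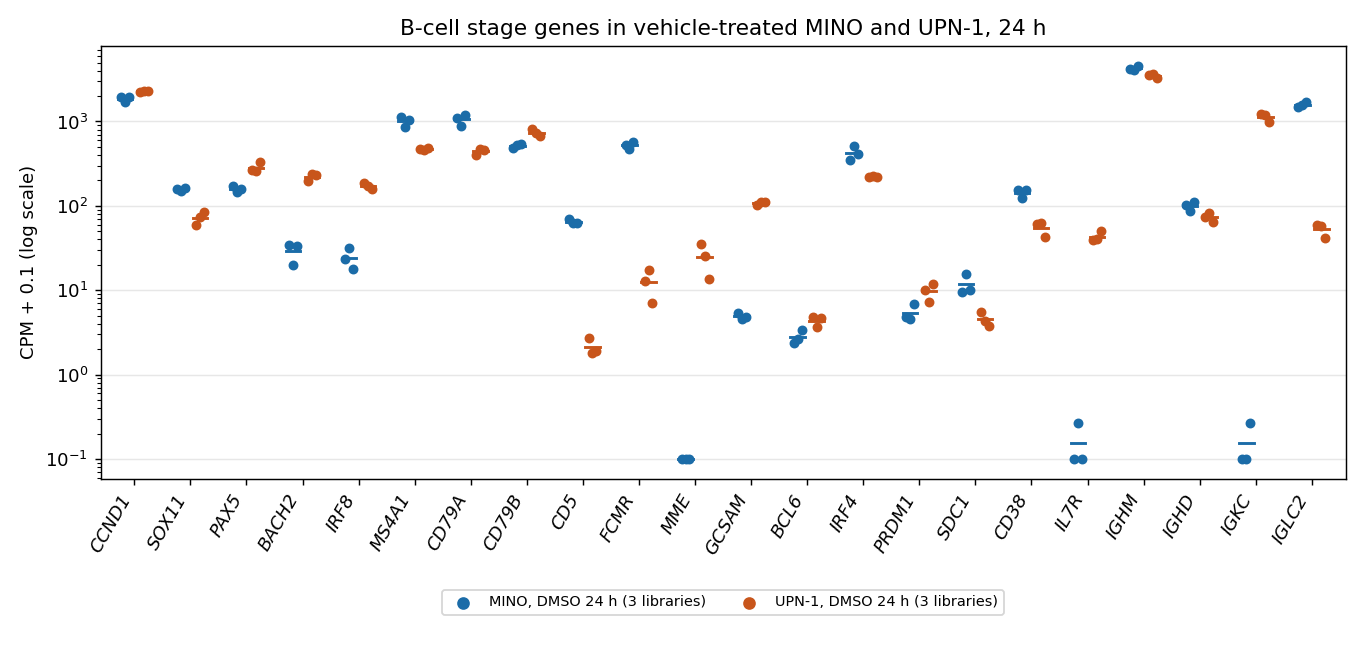
Level of 22 B-cell stage and immunoglobulin genes in each library, as CPM + 0.1 on a log axis, for the 3 MINO (blue) and 3 UPN-1 (orange) vehicle libraries at 24 h; points are libraries and short lines are group means. CD5, FCMR and IGLC2 lie far lower in UPN-1, while MME, IL7R and IGKC lie at or near 0 in MINO.

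The lines carried different immunoglobulin light chains. IGKC (ENSG00000211592, chromosome 2, 88857161 to 88857683), the kappa constant gene, had 2 counts over the MINO group and 1218, 1189 and 998 CPM in UPN-1. Kappa reads made up 82.2%, 83.7% and 86.8% of the constant light chain reads in the UPN-1 libraries, against 0%, 0% and 0.00667% in MINO. Light chain reads were thus almost all lambda in MINO and mostly kappa in UPN-1. IGLC2, a lambda constant gene, was at 1481, 1552 and 1714 CPM in MINO and 59.6, 56.9 and 41.3 CPM in UPN-1 (log2 fold change -4.92, SE 0.141, adjusted p = 3.6e-11). IGHM, the constant gene of IgM, was present in both lines at 4244, 4127 and 4599 CPM in MINO and 3521, 3611 and 3293 CPM in UPN-1, and IGHD was at 103, 85.7 and 111 CPM in MINO and 74.5, 82.6 and 64.2 CPM in UPN-1. Both were called lower in UPN-1 (log2 fold changes -0.32 and -0.44), but neither call held when all 12 vehicle libraries of the lines entered 1 fit (adjusted p = 0.44 and 0.339). Of 13 tested constant genes, 11 were lower and 2 higher. The switched genes IGHG4 and IGHA1 were at 25.8, 44.2 and 35.9 CPM and 52.2, 89.5 and 65.6 CPM in MINO, against 0.449, 0.496 and 0.269 CPM and 0.538, 0.694 and 1.62 CPM in UPN-1. Constant genes of a class are near-identical copies, so reads can be split among them by the counting.

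B-cell receptor signalling genes were lower in UPN-1 as a list, with 28 of 40 tested lower, 4 higher, 8 not called and a median log2 fold change of -0.82. The number called higher fell to 2 without MINO replicate 2 or without UPN-1 replicate 1. Of the kinases that act first, LYN was at 331, 279 and 336 CPM in MINO and 205, 197 and 177 CPM in UPN-1 (log2 fold change -0.71, SE 0.0934, adjusted p = 2.3e-05). SYK was at 311, 279 and 277 CPM in MINO and 345, 359 and 321 CPM in UPN-1 and barely differed (log2 fold change 0.24), and its call was lost in 4 of the 6 fits without 1 library (adjusted p 0.0555 to 0.101). ZAP70, a relative of SYK that belongs to T cells and to some B-cell leukaemias, was at 86.0, 114 and 94.2 CPM in MINO and 0.808, 0.0991 and 0.606 CPM in UPN-1 (log2 fold change -7.52, SE 0.243, adjusted p = 8.5e-11). MALT1, a protease on the way from the receptor to NF-kappaB, and PRKCB, a kinase that acts before it, both chosen after their values were seen, were lower too (log2 fold changes -1.70 and -1.84). The adaptor SH3BP2 had a log2 fold change of -5.69, the phosphatase PTPN6 of -2.67 and the transcription factor NFATC1 of -2.64, the last 2 chosen after their values were seen. RASGRP1, an exchange factor for RAS, was higher in UPN-1 (log2 fold change 2.71).

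NF-kappaB pathway and target genes were lower in UPN-1 in 28 of 34 tested and higher in 2, with a median log2 fold change of -1.53, and 19 of the lower genes passed 2-fold. At 72 h, in other libraries of the same lines, 24 were lower and 1 higher, against 19.1% and 18.8% of all genes. Of the subunit genes, NFKB2 was at 50.4, 77.5 and 59.1 CPM in MINO and 36.9, 33.9 and 26.8 CPM in UPN-1 (log2 fold change -0.95, SE 0.155, adjusted p = 1.5e-04), and NFKB1 and RELB were lower too (log2 fold changes -0.66 and -0.36), while RELA and REL had log2 fold changes of 0.09 and 0.27 and were not called. These 4 other subunits are named to complete the family, after their values were seen. BIRC3, a ubiquitin ligase that is both a regulator and a target of the pathway, was at 15.5, 24.3 and 19.2 CPM in MINO and 3.68, 4.86 and 3.10 CPM in UPN-1 (log2 fold change -2.37, SE 0.218, adjusted p = 9.5e-07). MAP3K14, the kinase NIK of the non-canonical branch, was at 14.0, 29.8 and 17.8 CPM in MINO and 14.1, 14.1 and 10.6 CPM in UPN-1. Its sets of libraries overlapped, and its call (adjusted p = 0.0220) was lost without MINO replicate 2 (0.0825) or UPN-1 replicate 3 (0.102). TNF, the cytokine, was at 13.4, 20.0 and 19.1 CPM in MINO and had 1 count over the UPN-1 group, so that MINO exceeded UPN-1 by a ratio of 598, with a 95% exact interval of 107 to 23652. CCL22, a chemokine, had 1.25, 11.4 and 4.44 CPM in MINO and 0 counts in all 3 UPN-1 libraries, at least 67.9-fold lower. The MINO libraries themselves spread widely for CCL22, with replicate 2 the highest. MINO replicate 2 was also the highest MINO library for NFKB2, BIRC3, MAP3K14 and TNF, and without it 25 list genes were called lower. TRAF2 and CHUK, an adaptor and a kinase of the pathway, were higher in UPN-1 (log2 fold changes 0.84 and 0.58).

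A motif of the kind NF-kappaB binds was looked for in the 250 bases before the start of each gene, since so many of these genes moved together. The motif searched was GGANNNTCC, which reads the same on both strands. It occurred in 12 of 34 matched windows of the NF-kappaB list (35.29%), against 8.26% of windows of tested protein-coding genes and 7.8% of all 35116 windows. List genes were picked as known pathway members and targets, so this share describes the list and not the lines. Among tested list genes, 7 of 10 with the motif were lower in UPN-1 and 3 were not called, and 16 of 19 without it were lower, 2 higher and 1 not called. Lower genes were thus no more frequent with the motif than without it. The windows of 4 genes are shown because, of the list genes with the motif, these were the furthest below MINO in UPN-1, and they were chosen after their values were seen. Sequences are from RefSeq on GRCh38.p14, 5′ to 3′ on the gene's strand, with the motif in capitals: LTB at chr6:31582426-31582675 on the minus strand, ICAM1 at chr19:10270870-10271119 on the plus strand, TNFAIP3 at chr6:137867009-137867258 on the plus strand and NFKBIA at chr14:35404750-35404999 on the minus strand.
LTB: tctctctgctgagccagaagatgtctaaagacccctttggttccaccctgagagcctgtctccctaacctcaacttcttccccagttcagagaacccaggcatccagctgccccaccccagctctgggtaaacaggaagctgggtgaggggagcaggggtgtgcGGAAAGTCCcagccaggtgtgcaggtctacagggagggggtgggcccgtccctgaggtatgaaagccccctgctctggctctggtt
ICAM1: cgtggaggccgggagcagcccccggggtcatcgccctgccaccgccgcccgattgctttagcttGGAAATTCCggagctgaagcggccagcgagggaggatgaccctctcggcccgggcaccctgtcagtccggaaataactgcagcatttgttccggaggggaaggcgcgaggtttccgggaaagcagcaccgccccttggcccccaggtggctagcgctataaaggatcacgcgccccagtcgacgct
TNFAIP3: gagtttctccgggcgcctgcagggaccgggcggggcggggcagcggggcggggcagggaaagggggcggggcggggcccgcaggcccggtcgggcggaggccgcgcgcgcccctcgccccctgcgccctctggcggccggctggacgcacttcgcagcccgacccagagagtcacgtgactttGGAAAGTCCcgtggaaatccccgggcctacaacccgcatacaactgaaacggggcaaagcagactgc
NFKBIA: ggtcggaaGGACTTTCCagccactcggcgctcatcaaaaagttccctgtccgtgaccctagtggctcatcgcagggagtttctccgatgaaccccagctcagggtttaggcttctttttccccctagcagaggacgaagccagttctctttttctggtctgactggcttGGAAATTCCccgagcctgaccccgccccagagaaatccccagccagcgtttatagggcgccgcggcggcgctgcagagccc

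LTB, whose protein forms the lymphotoxin heterotrimer, was at 22.8, 39.1 and 22.9 CPM in MINO and 0.987, 0.694 and 0.337 CPM in UPN-1 (log2 fold change -5.44). ICAM1, an adhesion ligand of integrin LFA-1, was at 34.4, 81.3 and 50.5 CPM in MINO and 2.96, 2.28 and 2.63 CPM in UPN-1 (log2 fold change -4.40). The feedback inhibitors TNFAIP3 (A20) and NFKBIA differed less, TNFAIP3 with 21.3, 43.4 and 30.5 CPM in MINO and 3.50, 4.96 and 2.83 CPM in UPN-1 and NFKBIA with 86.7, 156 and 146 CPM in MINO and 41.0, 45.3 and 36.8 CPM in UPN-1. NFKBIA holds 2 motifs in its window and the others 1 each. A match is a description of letters, not evidence of binding, and binding was not measured.

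Receptors that feed these pathways were lower as well. Of 30 tested cytokine receptor and JAK-STAT genes, 24 were lower and 3 higher, with a median log2 fold change of -0.90. IL21R, the receptor of a T-cell help cytokine, was at 48.2, 72.1 and 69.4 CPM in MINO and 5.65, 7.63 and 5.25 CPM in UPN-1 (log2 fold change -3.37, SE 0.183, adjusted p = 7.8e-09), and IL10RA was at 19.4, 26.1 and 29.7 CPM in MINO and 2.15, 2.68 and 1.88 CPM in UPN-1 (log2 fold change -3.50). PIM3, a survival kinase, and PTPN2, a phosphatase that acts on JAK kinases, were higher in UPN-1 (log2 fold changes 1.22 and 0.77). Of 23 tested Toll-like and TNF receptor family genes, 18 were lower and 1 higher, and 2 were higher without MINO replicate 1 or without UPN-1 replicate 3. TNFSF8 (CD30 ligand) was at 12.6, 10.1 and 11.6 CPM in MINO with 3 counts over the UPN-1 group, a ratio of 126, with a 95% exact interval of 42.9 to 615. IRAK3, an inhibitor of Toll-like receptor signalling, had a log2 fold change of -6.52, and TRAF6, the ligase downstream of those receptors, was the 1 gene of the list that was higher (0.95). CD40 and TNFRSF1B, chosen after their values were seen, were lower (log2 fold changes -2.13 and -4.72).

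MAPK feedback and immediate early genes were lower in 22 of 33 tested and higher in 5 (3 at a minimum count of 50), with a median log2 fold change of -1.01. DUSP6, a phosphatase induced by ERK, was at 6.91, 5.80 and 8.54 CPM in MINO and 0.359, 0.0991 and 0.337 CPM in UPN-1 (log2 fold change -4.63, SE 0.384, adjusted p = 3.7e-07), and FOSL2, an AP-1 subunit, was at 7.59, 5.97 and 6.79 CPM in MINO and 0.0897, 0.198 and 0.0673 CPM in UPN-1 (log2 fold change -5.79, SE 0.413, adjusted p = 9.6e-08). MYC (chromosome 8, 127735434 to 127742951) was at 490.5, 536 and 445 CPM in MINO and 65.1, 54.4 and 93.2 CPM in UPN-1 (log2 fold change -2.78, SE 0.160, adjusted p = 1.4e-08). The 2 sets of MYC values did not overlap, and MYC was called lower at 72 h too (-3.31, adjusted p = 5.7e-06). EGR1, chosen after its values were seen, was higher in UPN-1 (log2 fold change 1.23). IRS2, an adaptor of insulin receptor signalling, and SESN3, both known targets of FOXO factors, were higher in UPN-1, IRS2 with 4.99, 5.05 and 6.87 CPM in MINO and 31.5, 36.1 and 41.7 CPM in UPN-1 and SESN3 with a log2 fold change of 1.52.

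Notch and Wnt genes were split, with 11 higher and 14 lower of 32 tested. NOTCH1 was at 76.7, 87.3 and 71.5 CPM in MINO and 68.8, 58.1 and 74.3 CPM in UPN-1 and was not called (adjusted p = 0.0861), but it was called lower at 72 h (-0.84, adjusted p = 0.00267). It was called at 24 h without MINO replicate 3 (0.0426) or without UPN-1 replicate 3 (0.0471). The Notch ligand JAG2 was lower in UPN-1, with 23.8, 37.2 and 15.4 CPM in MINO and 1.08, 0.991 and 0.337 CPM in UPN-1, and HEY2, a Notch target repressor, was higher, with 1.70, 0.589 and 1.93 CPM in MINO and 18.6, 11.8 and 18.9 CPM in UPN-1. WNT16 was higher (log2 fold change 2.88) and WNT3 lower (-2.80).

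Homing and adhesion genes were lower in 18 of 26 tested and higher in 7, or 4 in the fit of 12 vehicle libraries. ITGAL and ITGB2, the 2 chains of integrin LFA-1, were lower together: ITGB2 was at 166, 178 and 154 CPM in MINO and 4.94, 5.65 and 3.64 CPM in UPN-1 (log2 fold change -5.16, SE 0.136, adjusted p = 1.6e-11) and ITGAL at 42.7, 58.0 and 47.7 CPM in MINO and 2.87, 3.67 and 1.88 CPM in UPN-1 (log2 fold change -4.18, SE 0.204, adjusted p = 2.9e-09). CCR7 and CXCR5, chemokine receptors of lymph node entry and follicle homing, and CD44 were lower too (log2 fold changes -2.52, -3.22 and -3.51), while CXCR4 was higher (1.08). These 4 were chosen after their values were seen, and most of the exonic length of CXCR5 (91.1%) overlaps exons on the other strand. GPR183, an oxysterol receptor that positions B cells in follicles, was at 8.72, 4.20 and 6.45 CPM in MINO and 46.1, 35.3 and 34.0 CPM in UPN-1 (log2 fold change 2.60, SE 0.214, adjusted p = 3.5e-07), and the adhesion molecule ALCAM was higher (1.16).

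Antigen presentation genes were lower in 22 of 30 tested and higher in 2, with a median log2 fold change of -0.76. HLA-DQA1 was at 337, 357 and 371 CPM in MINO and 35.4, 32.1 and 27.7 CPM in UPN-1, and HLA-F had a log2 fold change of -3.44. HLA-DRB5 and HLA-C were the 2 genes that were higher, HLA-DRB5 with 17.7, 16.9 and 23.5 CPM in MINO and 158, 161 and 155 CPM in UPN-1 and HLA-C with a log2 fold change of 1.22. HLA genes are near-identical copies whose alleles can map unequally, so each of these values is uncertain. CIITA, the master regulator of class II genes, and CD74, the class II chaperone, both chosen after their values were seen, were lower (-0.81 and -1.28). Of 30 tested interferon-stimulated genes, 12 were higher and 10 lower at 24 h, and 6 were lower in the fit of all 36 libraries. At 72 h 12 of 32 were higher and 5 lower, with a median log2 fold change of 0.49. HERC5 had 0 counts in MINO and 15.5, 14.7 and 17.7 CPM in UPN-1, at least 190.2-fold higher, while GBP2 was at 13.9, 19.8 and 22.5 CPM in MINO with 3 counts over the UPN-1 group, a ratio of 214, with a 95% exact interval of 72.9 to 1040.2. PARP14 was higher in UPN-1 (1.05) and SAMD9L lower (-1.47).

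Single genes of the G1 checkpoint differed by large factors, although the list as a whole was split (14 higher, 10 lower of 31 tested). CDKN2C (ENSG00000123080, chromosome 1, 50960745 to 50974634), which encodes p18, an inhibitor of CDK4 and CDK6, was at 98.9, 63.1 and 111 CPM in MINO and had 0 counts in all 3 UPN-1 libraries, at least 1008-fold lower. RB1 (ENSG00000139687, chromosome 13, 48303744 to 48599436), the gene of the retinoblastoma protein that those kinases phosphorylate, had 7557 counts over the MINO group and 9 over the UPN-1 group. Its levels were 253, 192 and 255 CPM in MINO and 0.269, 0.198 and 0.269 CPM in UPN-1 (log2 fold change -9.81, SE 0.212, adjusted p = 4.4e-12). CDK6 had 0 counts in MINO and 3.23, 2.58 and 3.30 CPM in UPN-1, at least 36.1-fold higher, whereas CDK4 was at 257, 266 and 285 CPM in MINO and 320.0, 315 and 328 CPM in UPN-1 and differed little (log2 fold change 0.25). The CDK4 call was lost without MINO replicate 1 (adjusted p = 0.0875), and 44.2% of its exonic length lies under exons of the other strand. CCND2 (cyclin D2) was at 15.9, 22.5 and 25.4 CPM in MINO and 0.179, 0.0991 and 0.202 CPM in UPN-1 (log2 fold change -6.92, SE 0.333, adjusted p = 2.5e-09), and CCND3 (cyclin D3) was higher in UPN-1, with 42.1, 36.7 and 49.3 CPM in MINO and 79.4, 68.6 and 69.7 CPM in UPN-1 (log2 fold change 0.76, SE 0.112, adjusted p = 5.9e-05).

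Inhibitors of the CIP/KIP family went in opposite directions. CDKN1A, the gene of p21, was at 71.0, 65.8 and 71.2 CPM in MINO and 11.04, 9.22 and 7.61 CPM in UPN-1 (log2 fold change -2.91, SE 0.131, adjusted p = 1.4e-09), and CDKN1C, the imprinted gene of p57, was at 3.85, 4.62 and 6.95 CPM in MINO and 83.3, 70.4 and 116 CPM in UPN-1 (log2 fold change 4.10, SE 0.219, adjusted p = 6.4e-09). CDKN2A, whose p16 product blocks CDK4 and CDK6, was present in both lines, with 208, 226 and 246 CPM in MINO and 163, 146 and 153 CPM in UPN-1 (log2 fold change -0.56, SE 0.0858, adjusted p = 8.8e-05). Counts per gene do not tell the transcripts of CDKN2A apart, so the level of the p16 transcript is not known. CDKN2B fell below the count filter, with 38 counts in MINO and 12 in UPN-1. TFDP2, a partner of the E2F factors, was at 47.4, 44.8 and 45.1 CPM in MINO and 367, 358 and 326 CPM in UPN-1 (log2 fold change 2.94, SE 0.0857, adjusted p = 3.9e-11), and its relative TFDP1, chosen after its values were seen, was higher too (1.55). In none of the genes of this paragraph that were tested did the 2 sets of libraries overlap.

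**Figure D3:**
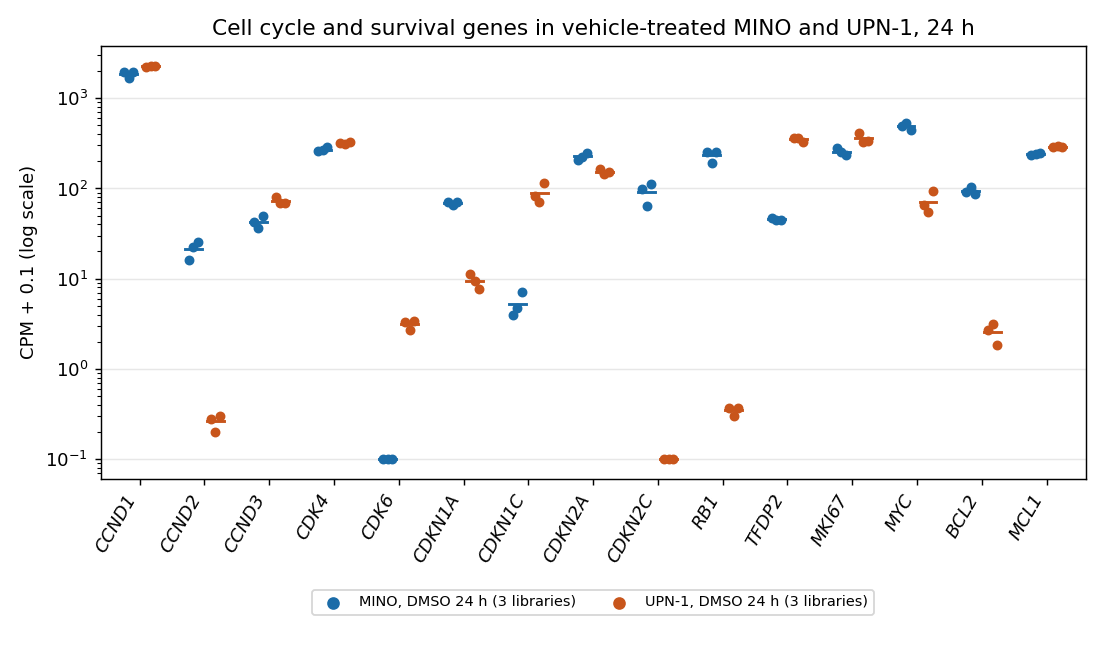
Level of 15 cell cycle and survival genes in each library, as CPM + 0.1 on a log axis, for the 3 MINO (blue) and 3 UPN-1 (orange) vehicle libraries at 24 h; points are libraries and short lines are group means. CDKN2C lies at 0 and RB1, CCND2 and BCL2 near 0 in UPN-1, CDK6 lies at 0 in MINO, and CCND1, CDK4, MKI67 and MCL1 lie close together.

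Genes of S phase and mitosis were modestly higher in UPN-1. Of 48 tested DNA replication genes, 27 were higher and 5 lower, with a median log2 fold change of 0.29, and of 50 tested mitosis genes, 29 were higher and 4 lower, with a median of 0.36. Only 4 and 3 of the higher genes reached 2-fold. In a fit of all 36 libraries, 15 genes of each list were called higher, and 2 mitosis genes lower. That fit called 4009 of all 17256 genes higher and 3617 lower. GINS2 and GINS4, subunits of the replicative helicase complex, had log2 fold changes of 1.37 and 1.70. MCM5, another helicase subunit, went the other way, with 821, 690.0 and 986 CPM in MINO and 448, 469.9 and 473 CPM in UPN-1 (log2 fold change -0.84, SE 0.113, adjusted p = 2.7e-05), as did the polymerase subunit POLD2 (-0.55). MKI67, the proliferation marker Ki-67, was at 283, 253 and 234 CPM in MINO and 416, 324 and 338 CPM in UPN-1 (log2 fold change 0.49, SE 0.106, adjusted p = 0.00139), and its call was lost in the fit of 12 vehicle libraries (adjusted p = 0.0808). ECT2, which starts cytokinesis, and CENPM, a centromere protein, were higher (1.27 and 1.19). The mitotic kinases AURKA and AURKB were lower (-0.62 and -0.75).

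Of the survival genes named, BCL2 differed far more than MCL1. BCL2 (ENSG00000171791, chromosome 18, 63123346 to 63320128), the inhibitor of mitochondrial apoptosis and the target of venetoclax, was at 90.8, 103 and 87.0 CPM in MINO and 2.60, 3.07 and 1.75 CPM in UPN-1 (log2 fold change -5.28, SE 0.160, adjusted p = 4.8e-11). At 72 h it stood at 157, 419 and 154 CPM in MINO and 4.93, 7.74 and 1.24 CPM in UPN-1 (log2 fold change -5.72, adjusted p = 1.8e-04). MCL1, its relative, was at 238, 243 and 249 CPM in MINO and 287, 293 and 290.3 CPM in UPN-1 and differed little (log2 fold change 0.25, SE 0.0724, adjusted p = 0.00831), and that call was lost without MINO replicate 1 (adjusted p = 0.0567).

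Core glycolysis did not differ in a shared direction. Of 38 tested glycolysis and hypoxia genes, 9 were higher, 11 lower and 18 not called, so that 52.6% were called against 62.1% of all genes. The fit of 12 vehicle libraries called 5 higher and 5 lower. LDHA, a subunit of lactate dehydrogenase, was at 1286, 1638 and 1090.3 CPM in MINO and 1326, 1386 and 1309.9 CPM in UPN-1. LDHB, the other subunit, was at 956, 883 and 891 CPM in MINO and 884, 915 and 877 CPM in UPN-1. Both overlapped between the lines and neither was called (adjusted p = 0.985 and 0.776). HK2, the hexokinase of proliferating cells, was at 134, 232 and 119.6 CPM in MINO and 112, 136 and 130.1 CPM in UPN-1 and overlapped as well (adjusted p = 0.119). It was called without MINO replicate 3 (adjusted p = 0.0171) and in the fit with no count filter (0.0014). The lactate exporter SLC16A3 was lower in UPN-1, with 71.9, 109 and 61.6 CPM in MINO and 10.1, 14.4 and 11.98 CPM in UPN-1 (log2 fold change -2.74, SE 0.201, adjusted p = 1.2e-07). ADM, a hypoxia-induced peptide, differed by -2.89 with a wide spread in MINO (3.17, 23.1 and 4.10 CPM). PFKFB2 and PDK2, regulators of glycolytic flux and pyruvate entry, were higher (1.22 and 0.88).

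The 2 genomes of the respiratory chain went apart at 24 h. All 13 tested mitochondrially encoded mRNAs were lower in UPN-1, with a median log2 fold change of -1.64. MT-CO2 was at 6339, 4854 and 5154 CPM in MINO and 999.9, 935 and 746 CPM in UPN-1 (log2 fold change -2.61, SE 0.135, adjusted p = 5.0e-09) and MT-CO3 at 9138, 6965 and 7669 CPM in MINO and 1364, 1513 and 1343 CPM in UPN-1 (log2 fold change -2.49, SE 0.117, adjusted p = 2.1e-09). Mitochondrial genes took 6.21%, 4.98% and 4.94% of gene reads in the MINO libraries and 1.76%, 1.87% and 1.52% in the UPN-1 libraries. At 72 h 6 of the 13 mRNAs were called lower and 0 higher, with a median log2 fold change of -1.03. The shares at 72 h were 6.34%, 3.62% and 3.58% in MINO and 2.66%, 2.17% and 1.905% in UPN-1. Fewer mitochondrial genomes and less RNA from each cannot be told apart in bulk RNA, and the same holds for fewer expressing cells and less RNA per cell in every comparison here. Leaving these genes out of the library sizes moved the median of all genes only from 0.02145 to 0.01855. Of 50 tested nuclear respiratory genes, 24 were higher and 8 lower, with a median of 0.22, and 15 were higher in the fit of all 36 libraries. NDUFB9 and NDUFB6, subunits of complex I, were higher (1.36 and 1.15), and UQCRH of complex III and COX6C of complex IV were lower (-1.34 and -1.17).

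Serine synthesis differed between the lines at PSAT1. PSAT1 (ENSG00000135069, chromosome 9, 78297125 to 78330093), the aminotransferase of that pathway, had 2 counts over the MINO group and 168, 142 and 156 CPM in UPN-1, a ratio of 2747, with a 95% exact interval of 760.1 to 22689. At 72 h it was again near 0 in MINO, with 0.0759, 0.104 and 0.190 CPM in MINO and 217, 92.7 and 158 CPM in UPN-1. PHGDH, the enzyme before it in the pathway, was at 182, 176 and 197 CPM in MINO and 260.1, 275 and 279.7 CPM in UPN-1 (log2 fold change 0.55, SE 0.0786, adjusted p = 4.4e-05) and was not called at 72 h (adjusted p = 0.518). The list as a whole was split, with 17 higher and 14 lower of 42 tested, and 8 in each direction in the fit of all 36 libraries. ODC1, the rate-limiting enzyme of polyamine synthesis, was at 792, 734 and 824 CPM in MINO and 1851, 1842 and 2100.2 CPM in UPN-1 (log2 fold change 1.30, SE 0.0907, adjusted p = 7.7e-08). ATF5, a stress response transcription factor, was lower (log2 fold change -1.13). ASS1, the arginine synthesis enzyme, was higher in UPN-1 at 24 h with 15.1, 19.9 and 11.9 CPM in MINO and 37.2, 35.4 and 33.5 CPM in UPN-1 (log2 fold change 1.17, SE 0.162, adjusted p = 3.5e-05).

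Other metabolic lists were divided. Nucleotide synthesis genes were higher in 15 and lower in 10 of 36 tested, among them RRM1, the large subunit of ribonucleotide reductase, at 247, 187 and 235 CPM in MINO and 485, 451 and 454 CPM in UPN-1 and ADSL at 0.94, against ADA and IMPDH1 at -1.43 and -1.03. MTAP, the methionine salvage enzyme encoded beside CDKN2A, was present in both lines, at 67.4, 62.4 and 59.2 CPM in MINO and 36.7, 42.3 and 43.96 CPM in UPN-1. Cholesterol and fatty acid genes were higher in 14 and lower in 13 of 43 tested. SQLE, a rate-limiting enzyme of sterol synthesis, was at 39.3, 42.6 and 36.3 CPM in MINO and 160.0, 139.9 and 162 CPM in UPN-1 (log2 fold change 1.97, SE 0.0952, adjusted p = 2.6e-09), and ACACB was higher too (1.04). SREBF1, the lipogenic transcription factor, and TM7SF2 were lower (-1.77 and -1.79). Redox genes were higher in 8 and lower in 15 of 30 tested, and 9 were lower in the fit of all 36 libraries. HMOX1, the haem-degrading enzyme, was at 52.7, 46.2 and 65.4 CPM in MINO and 2.06, 4.76 and 1.21 CPM in UPN-1 (log2 fold change -4.43, SE 0.299, adjusted p = 5.7e-08), and TXN, thioredoxin, was at 83.3, 78.0 and 75.5 CPM in MINO and 316, 275 and 242 CPM in UPN-1 (log2 fold change 1.81, SE 0.102, adjusted p = 1.1e-08). GPX7 was lower and MGST2 higher (-1.62 and 2.87).

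Over all autosomal protein-coding genes at 20 CPM or more, the 5 in each direction with the largest fitted fold change had at most 1 count in the lower line, where a fitted fold is not a bound and gives no order of size. ADD2, IGLL5, MYADM, EPB41L2 and PARD3 had 0 counts in all 3 MINO libraries. ADD2 (an adducin of the membrane skeleton) was at 78.2, 85.7 and 93.1 CPM in UPN-1, at least 1016-fold higher, and the bound was 976-fold for IGLL5, 839-fold for MYADM, 805-fold for EPB41L2 and 724-fold for the polarity gene PARD3. CDKN2C, IL32, FAF1 and NDFIP2 had 0 counts in all 3 UPN-1 libraries, and CD7 had 1. IL32, an inflammatory cytokine, was at 72.2, 125 and 75.2 CPM in MINO (at least 1031-fold lower in UPN-1), FAF1 at 87.6, 79.5 and 89.5 CPM (951-fold) and NDFIP2 at 41.5, 48.5 and 51.8 CPM (533-fold). CD7, a surface protein of T and NK cells, was at 112, 123 and 149.6 CPM in MINO, a ratio of 4340.2, with a 95% exact interval of 779 to 171469.

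Markers of other cell types were read because CD7 belongs to T cells. Of 16 T and NK cell markers, 6 passed the filter and 5 were lower in UPN-1 (without MINO replicate 1, or without UPN-1 replicate 2, 1 other was called higher). Summed levels in this paragraph are CPM on library sizes without the trimmed-mean scaling, so scaled levels of single genes do not add up to them exactly. The 16 markers summed to 231 to 302 CPM in MINO and 59.0 to 62.9 CPM in UPN-1. CD7, TRAC (the T-cell receptor alpha constant gene) and PRF1 (perforin) made up most of that sum, with 71.4, 72.0 and 93.7 CPM in MINO and 54.0, 48.7 and 52.2 CPM in UPN-1 for TRAC and 52.0, 55.8 and 65.2 CPM in MINO and 3.77, 4.06 and 2.29 CPM in UPN-1 for PRF1. CD3D, CD2, GZMA and GZMB had 0 counts in all 6 libraries. The 15 myeloid and erythroid markers summed to at most 1.83 CPM in a library. Of 15 stromal, endothelial and epithelial markers, 3 were tested: PECAM1 and PDGFRB were higher in UPN-1 and EPCAM lower (1.79, 1.63 and -4.04).

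A further description, chosen after the values were seen, counted protein-coding genes with a mean of at least 5 CPM in 1 line and 0 counts in the other. There were 20 such genes silent in UPN-1, of which 13 had 0 counts at 72 h as well, and 83 silent in MINO, of which 71 had 0 counts at 72 h. Of the 83, 23 lay on chromosome 19 (27.7%, against 8.15% of the 10968 tested protein-coding genes), and 21 had names of the zinc finger family (25.3%, against 4.18%). ZSCAN18 and ZNF135, neighbours on chromosome 19, had 0 counts in MINO and 34.998, 38.5 and 36.6 CPM and 25.3, 27.2 and 27.6 CPM in UPN-1. Of all 224 tested zinc finger genes on chromosome 19, 122 were higher in UPN-1 and 16 lower, with a median log2 fold change of 0.56. A cluster on chromosome 2 was near 0 in MINO throughout: SP100 and SP140L had 0 counts, SP140 had 2 and SP110 had 14. These nuclear body genes were at 29.7, 37.5 and 30.0 CPM (SP100), 17.1, 13.3 and 15.6 CPM (SP140L), 104, 92.4 and 88.2 CPM (SP140) and 54.2, 54.1 and 45.6 CPM (SP110) in UPN-1.

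CG dinucleotides, the sites of DNA methylation, were counted in the promoters of silent genes as a description, with no test. The 250 bases before the start held a median of 17 CG in 66 matched genes silent in MINO and 7 in 15 matched genes silent in UPN-1, against 21 in tested protein-coding genes. ZSCAN18 at chr19:58118405-58118654 on the minus strand and SP100 at chr2:230415951-230416200 on the plus strand are shown, with each CG in capitals. They had the highest UPN-1 level among zinc finger genes and among genes of the chromosome 2 cluster with 0 counts in MINO. ZSCAN18 holds 27 CG and SP100 holds 6. Both windows precede the RefSeq start and overlap the GENCODE span, which begins on the gene's strand at 58118427 for ZSCAN18 and 230415942 for SP100. Methylation was not measured.
ZSCAN18: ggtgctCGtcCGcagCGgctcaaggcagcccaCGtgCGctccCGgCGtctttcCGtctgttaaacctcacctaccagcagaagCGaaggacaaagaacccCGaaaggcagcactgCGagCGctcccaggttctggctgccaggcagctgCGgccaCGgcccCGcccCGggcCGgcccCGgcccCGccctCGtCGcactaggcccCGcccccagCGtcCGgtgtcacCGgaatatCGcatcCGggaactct
SP100: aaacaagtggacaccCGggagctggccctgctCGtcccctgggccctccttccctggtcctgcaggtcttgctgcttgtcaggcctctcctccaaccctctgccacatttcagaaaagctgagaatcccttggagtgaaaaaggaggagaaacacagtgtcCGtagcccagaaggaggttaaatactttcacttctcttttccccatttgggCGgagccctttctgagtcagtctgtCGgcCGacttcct

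Neighbours of CDKN2C and RB1 were read by position in GENCODE v44 on GRCh38. FAF1 (chromosome 1, 50437028 to 50960267) ends just before the start of CDKN2C on chromosome 1, and both had 0 counts in UPN-1 at 24 h and at 72 h. Of 13 tested protein-coding neighbours within 1.5 Mb of CDKN2C, 10 were lower in UPN-1 and 2 higher, with a median log2 fold change of -0.88. RNF11 and EPS15, the nearest on the other side and chosen after their values were seen, were lower. RNF11 was at 19.1, 19.3 and 21.9 CPM in MINO and 7.63, 4.86 and 4.91 CPM in UPN-1, and EPS15 was at 58.8, 60.8 and 58.1 CPM in MINO and 29.9, 32.8 and 26.4 CPM in UPN-1. RB1 lay among genes that were mostly higher in UPN-1. Of its 15 tested neighbours within 1.5 Mb on chromosome 13, 12 were higher in UPN-1 and 1 lower, with a median of 0.57. ITM2B and MED4, chosen after their values were seen, lie before RB1 and were higher (0.68 and 0.93), and RCBTB2, which lies within the span of RB1, was at 24.9, 31.1 and 26.1 CPM in MINO and 32.3, 33.2 and 40.1 CPM in UPN-1. Copy number was not measured.

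**Figure D4:**
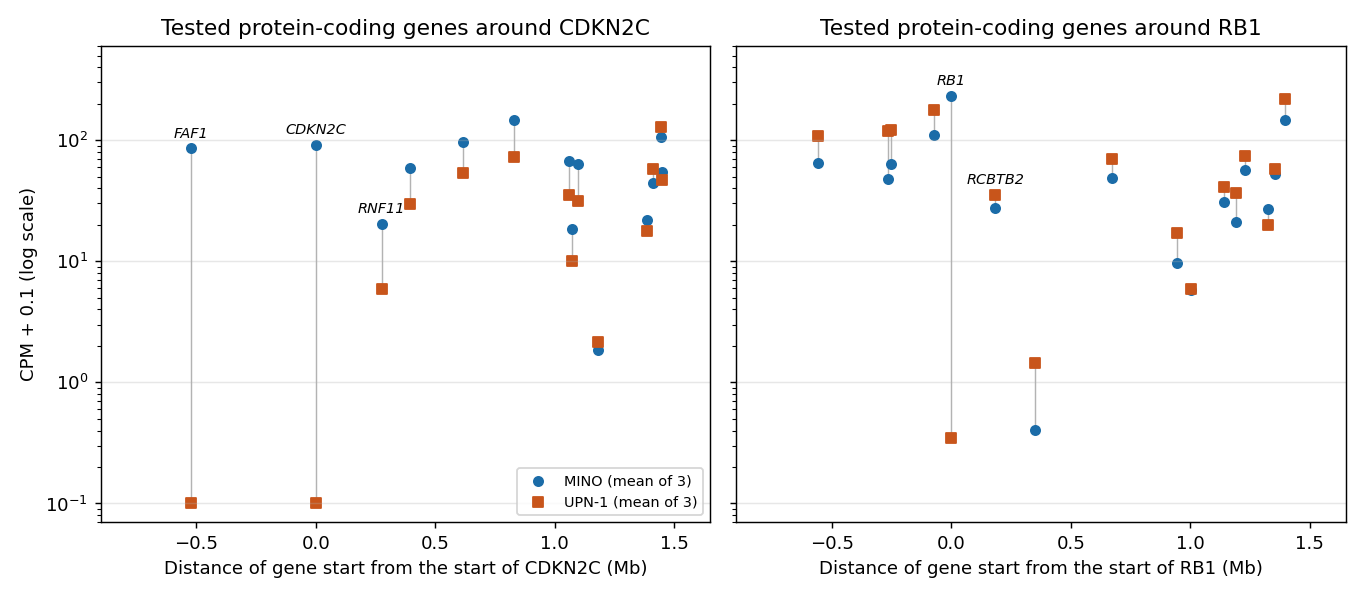
Mean level of tested protein-coding genes (CPM + 0.1, log axis, 3 libraries each) in MINO (blue circles) and UPN-1 (orange squares) against the distance of their start from that of CDKN2C (left) and RB1 (right), with a grey line joining the 2 values of a gene. FAF1 and CDKN2C lie at 0 in UPN-1 beside neighbours that are mostly lower there, and RB1 lies near 0 in UPN-1 among neighbours that are mostly higher.

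Whole chromosomes also differed in their median. Tested genes of chromosome 13 had a median log2 fold change of 0.88, with 160 of 195 higher in UPN-1 and 13 lower. Chromosomes 9, 3 and 10 had medians of 0.54, 0.42 and 0.40. Chromosome 18, which holds BCL2 and MALT1, had a median of -0.51, with 83 of 151 genes lower and 37 higher, and chromosomes 7, 21 and 20 had medians of -0.46, -0.45 and -0.39. In windows of 10 Mb with at least 20 tested genes, 3 of 199 had a median of -1 or lower and 2 a median of 1 or higher. The lowest, at -1.13 and -1.10, lay side by side between 40 and 60 Mb of chromosome 18, and the highest, at 1.31, lay at the end of chromosome 13. What part gene dosage has in the levels of single genes was not tested.

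The same comparison at 72 h rests on 6 other libraries of the same lines. It called 5520 of 14567 genes (37.9%), 2735 higher (18.8%) and 2785 lower (19.1%), and the 2 sets of libraries did not overlap for 7637 (52.4%). Of 13659 genes tested at both times, 4924 were called at both, 4914 in the same direction and 10 in opposite directions. Among genes called with at least a 2-fold difference at 24 h, 2870 of 3418 (84.0%) were called in the same direction at 72 h and 3380 had the same sign. Among named genes with a 2-fold difference at 24 h, CDKN1C (log2 fold change 2.05, adjusted p = 0.0691), SLC16A3 (-1.27, 0.181), PIM3 (0.30, 0.611), CD27 (-1.54, 0.0594), PFKFB2 (0.72, 0.0567), ACACB (0.79, 0.0608) and ADM (-2.82, 0.0516) were, besides CD38, not called at 72 h. MINO replicate 2 stood apart for some genes at 72 h. CD27 was at 22.9, 99.7 and 22.5 CPM in MINO and 18.0, 22.4 and 9.42 CPM in UPN-1 at that time. PIM3 was at 53.7, 194 and 62.9 CPM in MINO and 137, 119 and 124 CPM in UPN-1. Without MINO replicate 2 at 72 h, 6335 genes were called. A test of the difference between the times called 1 gene of 14978 (0.00668%), ASS1, while 954 had an unadjusted p under 0.05 and DESeq2 called 31. ASS1 stood at 171, 203 and 194 CPM in MINO and 63.0, 38.1 and 24.0 CPM in UPN-1 at 72 h, the reverse of its order at 24 h, and its line difference at 72 h minus that at 24 h was -3.36 (SE 0.383, adjusted p = 0.00692). All 3 MINO libraries at 72 h were above all 3 UPN-1 libraries, and at 24 h all 3 were below them. No gene was called for this difference without MINO replicate 1 at 24 h or without UPN-1 replicate 2 at 72 h, and 5 were called without MINO replicate 2 or without UPN-1 replicate 3 at 72 h.

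**Figure D5:**
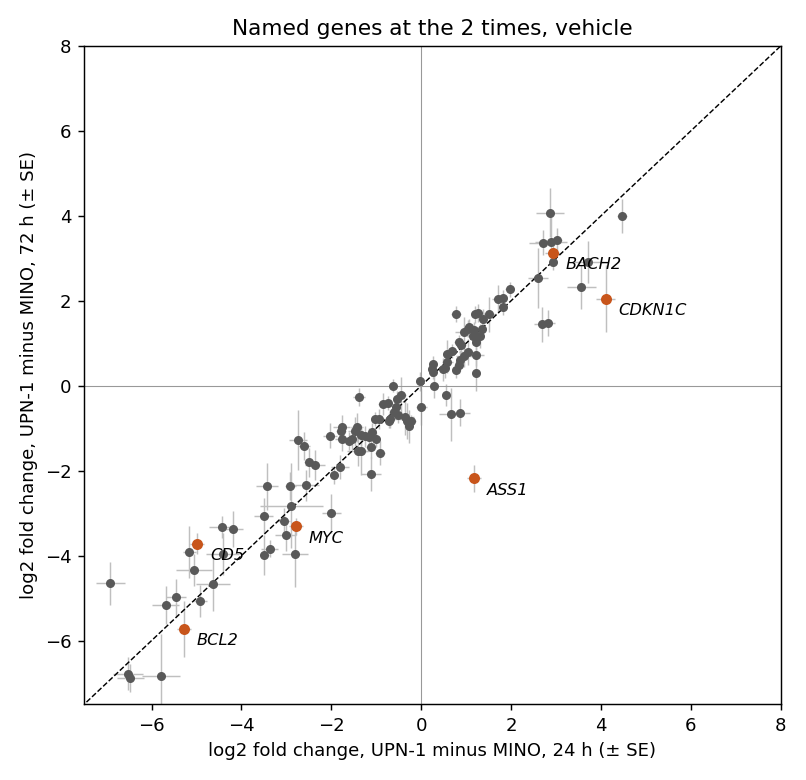
Log2 fold change (UPN-1 minus MINO) at 24 h (x axis) and 72 h (y axis) for named genes with more than 3 counts in every group; bars are standard errors, the dashed line marks equal values, 122 genes are plotted and 3 lie outside the axes. Of these 125, 118 have the same sign at both times, and ASS1 lies farthest from the line.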

How the data were processed

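The deposited values are read counts per gene, 1 file per library. HISAT2 2.2.1, HTSeq 0.13.5 and GRCh38 are named, per the submitters' processing notes. None of the sources used here gives the annotation release, the read layout or whether counting used strand. Per the labels' protocols, all cells grew in RPMI-1640 with fetal bovine serum, and total RNA was extracted. Of 58302 gene IDs, 57532 were placed by GENCODE v44, 770 had no position, and 2848 on X and Y were left out of the tests but not of library sizes. The 5 summary lines of each file stayed out of library sizes, and gene reads were 44.05% to 44.91% of each file's total in the 24 h libraries.

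Counts were filtered with filterByExpr (minimum count 10, minimum total 15), scaled by TMM and tested with edgeR 4.0.16 (quasi-likelihood, 4 residual degrees of freedom, R 4.3.3). The standard error is the log2 fold change divided by the root of F. Calls use p adjusted by Benjamini-Hochberg across every tested gene, with a threshold of 0.05. DESeq2 1.42.0 was an alternative. The same fit was made at 72 h, and the difference between times was tested on 12 vehicle libraries (8 residual degrees of freedom). The code was tested on simulated data. Nothing in the labels says how biological replicates of a line were separated, so p-values measure the spread between these samples. Replicates differed by more than sampling noise (chi-square per degree of freedom 3.21 to 15.3). Intervals and bounds cover counting error only. A count of 0 allows up to 3 counts, 0.212 to 0.324 CPM by library.

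The members and gene lists were chosen with earlier results of these data known. Genes named are 46 fixed genes, up to 2 called genes per list and direction with the largest change at 5 CPM or more, and over all genes the 5 per direction with the largest change at 20 CPM or more, each without overlap of the libraries. Any others were chosen after their values were seen. These include RAG1, RAG2, DNTT and the markers of other cell types. At least 20% of the exonic length lay under exons of the other strand for CDK4, CD27, PDK2, ZNF135, DUSP6, HLA-F, ZSCAN18, ICAM1, FCMR, GINS4, IL21R, CXCR5 and CDKN2C, whose counts may hold reads of their neighbours. Some genes and 1 gene list are not reported here. Promoters are from RefSeq (GRCh38.p14), and 34 of the NF-kappaB genes matched.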

Additional observations from a re-analysis of the deposited data

Results flagged for a closer look

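ASS1, which encodes argininosuccinate synthase, was set apart by a test of the difference between the times, 1 of 14978 genes tested. At 24 h it was at 15.1, 19.9 and 11.9 CPM in MINO and 37.2, 35.4 and 33.5 CPM in UPN-1, and at 72 h it was at 171, 203 and 194 CPM in MINO and 63.0, 38.1 and 24.0 CPM in UPN-1. The line difference at 72 h minus that at 24 h was -3.36 on the log2 scale (SE 0.383, edgeR adjusted p = 0.00692). All 3 MINO libraries were higher at 72 h than any at 24 h, while the UPN-1 libraries at 72 h lay on both sides of those at 24 h.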

How the results depend on the processing

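The count of genes called at 24 h (8550) stayed within 1.5 times under each alternative run, between 7103 in the fit of 12 vehicle libraries and 9330 with no filter, and between 7864 and 8705 without 1 library. The count with a 2-fold difference (3476) was 3467 to 3712 without 1 library, 6716 when edgeR tested against 1.2-fold (glmTreat) and 2257 when it tested against 2-fold, because those tests set another threshold. The 72 h count (5520) was 4031 to 6335 without 1 library. The number of genes whose line difference changed between the times (1) was 172 with no filter, 31 with DESeq2, and 0 to 5 without 1 library, and the cause was not tested. Of 2040 values of 146 named genes under the alternatives, 1988 kept direction and call, 40 lost the call (16 genes), 5 gained it (2 genes) and 7 changed sign. The sign changes were those of uncalled genes: LDHA was -0.00613 with DESeq2 size factors, -0.0299 at a minimum count of 50, -0.00611 with DESeq2, -0.134 to 0.145 without 1 library (-0.0335 and -0.134 without MINO replicates 1 and 3, -0.0133 without UPN-1 replicate 2), and LDHB was 0.0247 in the fit of all 36 libraries. In that fit ASS1 (edgeR adjusted p = 0.0832), PHGDH (0.109), AURKA (0.0559) and SAMD9L (0.062) lost their calls. So did CCND1 (0.127), CDK4 (0.132), MKI67 (0.192), SYK (0.126), BCL6 (0.212), XBP1 (0.629), IGHM (0.423) and IGHD (0.401). In the fit of 12, CHUK (0.0819), ADM (0.0589) and MCL1 (0.0593) lost theirs. The same fit lost CCND1 (0.202), CDK4 (0.121), MKI67 (0.0808), SYK (0.121), BCL6 (0.315), XBP1 (0.511), IGHM (0.44) and IGHD (0.339). Of 784 list counts, 747 stayed within 1.5 times.

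Deviations from the group means correlated weakly between libraries of the same replicate number, at 0.014, 0.055 and 0.11 for replicates 1, 2 and 3. Other pairs lay between -0.08 and 0.03. Each MINO replicate correlated best with the UPN-1 replicate of its own number, but UPN-1 replicate 1 correlated best with MINO replicate 2 (0.03). Whether replicate numbers pair the lines is not known from these weak values, and the main fit did not pair them. With the replicate block the counts were 8729 at 24 h, 3456 with a 2-fold difference, 5878 at 72 h and 3 between the times, BCL6 was not called (adjusted p = 0.0565) and HK2 was (0.0419). Depth limits genes under 0.212 to 0.324 CPM, where 0 counts in a library cannot be told from a low level.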
